A study of Homo sapiens with 6 samples.

Results

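The regions described here carried a SMARCC2 peak in LNCaP cells and no called peak in any of the other 3 ChIP-seq peak lists of the study. Peaks with 1 bp or more in common across the 4 lists formed a region, on chromosomes 1 to 22 and X, and a region was kept when its only list was LNCaP SMARCC2. This gave 1890 regions of 65315, or 2.89%, and each of them was a single peak. They were the smallest of the 4 classes called in 1 list alone: 8128 regions (12.4%) were called with MR49F SMARCC2 alone, 6614 (10.1%) with LNCaP BRG1 alone and 5888 (9.01%) with MR49F BRG1 alone. Regions called in all 4 lists numbered 14863.

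MR49F is an enzalutamide-resistant derivative of LNCaP, an androgen-responsive line of human prostate adenocarcinoma, and enzalutamide is an antiandrogen drug. The MR49F culture medium contained 10 µM enzalutamide, and the labels state none for LNCaP cells, so line and drug exposure cannot be told apart. Cells of both lines were fixed with 2 mM disuccinimidyl glutarate for 45 min and with 1% formaldehyde for 10 min, and each precipitation took 4 µg of an antibody to BRG1 or to SMARCC2. There was 1 library for each line and antibody, so values below come without replicate error or p-values; the intervals given are Wilson 95% intervals and cover counting error only.

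SWI/SNF complexes use the energy of ATP to slide or evict nucleosomes, which opens promoters and enhancers to transcription factors. BRG1, encoded by SMARCA4, is an ATPase of the complex. SMARCC2, also called BAF170, is a core scaffold subunit that pairs with its relative SMARCC1 and holds the other subunits. In prostate cancer cells the complex works at enhancers together with lineage factors such as the pioneer factor FOXA1. A region with a SMARCC2 peak and no BRG1 peak is not a region without BRG1, because a peak is missing wherever the signal stayed under the threshold of the peak caller. The members were chosen by these thresholds, so their peak strength is a description of the choice and not a finding.

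Deposited peak lists hold no sequence, and promoter windows from RefSeq (GRCh38.p14, from 250 bases before to 50 bases after a start site) were the sequences used here. A SMARCC2-only peak overlapped such a window at 58 regions. The windows below are shown because they lay under the strongest of these peaks for at least 223 of their 300 bases. They read 5′ to 3′ on the strand of the gene, and capitals mark a match, on either strand, to 1 of 10 short motifs: the CCAAT box, the GC box core GGGCGGG, the ETS-type core CCGGAAG, the cAMP response element TGACGTCA, the E-box CACGTG, the AP-1 type site TGANTCA, the forkhead-type core TGTTTAC, the TATA box core TATAAA, the GATA-type hexamer AGATAA or the steroid receptor hexamer AGAACA. The first is the start of WT1, a zinc finger transcription factor of kidney and gonad development, at chr11:32435490-32435789 on the minus strand, and the next that of LAMA4, a laminin chain of basement membranes, at chr6:112254518-112254817 on the minus strand. The last 2 belong to lncRNA genes, LOC124905219 at chrX:132957185-132957484 on the plus strand and LOC105371259 at chr16:51994549-51994848 on the minus strand.

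WT1: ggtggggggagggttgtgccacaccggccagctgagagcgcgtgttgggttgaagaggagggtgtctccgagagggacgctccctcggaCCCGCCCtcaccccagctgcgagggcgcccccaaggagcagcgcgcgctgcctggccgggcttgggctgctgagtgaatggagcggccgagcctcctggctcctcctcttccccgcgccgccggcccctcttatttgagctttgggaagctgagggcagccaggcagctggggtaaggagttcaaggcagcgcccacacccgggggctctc
LAMA4: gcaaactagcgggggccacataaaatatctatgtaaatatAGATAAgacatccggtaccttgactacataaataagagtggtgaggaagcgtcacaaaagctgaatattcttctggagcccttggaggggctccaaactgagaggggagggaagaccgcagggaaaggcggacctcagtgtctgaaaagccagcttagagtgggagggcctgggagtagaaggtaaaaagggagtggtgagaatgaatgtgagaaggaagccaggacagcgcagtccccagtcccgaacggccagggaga
LOC124905219: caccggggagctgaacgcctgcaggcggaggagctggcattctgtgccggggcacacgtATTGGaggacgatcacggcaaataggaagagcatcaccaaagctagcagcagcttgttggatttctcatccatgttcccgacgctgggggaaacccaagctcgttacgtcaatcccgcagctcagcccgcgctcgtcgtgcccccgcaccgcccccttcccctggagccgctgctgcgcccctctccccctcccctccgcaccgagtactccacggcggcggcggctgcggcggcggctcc
LOC105371259: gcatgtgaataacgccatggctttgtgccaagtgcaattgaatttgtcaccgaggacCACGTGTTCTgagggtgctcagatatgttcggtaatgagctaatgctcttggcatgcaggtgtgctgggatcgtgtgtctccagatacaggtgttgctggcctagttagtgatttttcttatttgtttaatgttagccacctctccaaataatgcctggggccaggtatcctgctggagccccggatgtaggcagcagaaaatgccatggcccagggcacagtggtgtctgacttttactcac

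The peak at WT1 ran from 32435394 to 32435979 on chromosome 11, covered the whole window and had its summit 250 bp upstream of the start site. It had 24 fragments at its summit over a local background of 4.00, a −log10 q-value of 7.29 and lay 62000 bp from the nearest peak of another list. Its window was 70.0% G and C and held 1 GC-box core, GGGCGGG. The same peak also lay over a start site of WT1-AS, a lncRNA transcribed in the opposite direction. It covered 191 bases of the window of another WT1-AS start site, but not that start site. The data thus do not assign the peak to either gene.

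The peak at LAMA4 had 22 fragments at its summit, which lay 70 bp upstream of the start site, over a background of 3.30. The LAMA4 window was 51.3% G and C and held the hexamer AGATAA. The window of LOC124905219 lay wholly under a peak of 23 fragments and held the reverse of CCAAT, while that of LOC105371259 held CACGTG overlapping a reverse AGAACA, the steroid receptor hexamer. Among the windows shown, G and C content ran from 49.7% at LOC105371259 to 70.0% at WT1. These are letter matches in a window and not mapped binding sites.

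The 68 windows under SMARCC2-only peaks, 48 of them at protein-coding genes, came from 58 regions. Some windows thus shared a peak, as at WT1 and WT1-AS. The intervals below treat windows as separate and can be too narrow. Over these 68 windows the median G and C content was 61.5%. The median was 68.7% over the 5524 windows under regions of all 4 lists and 58.7% over all 34961 windows. GGGCGGG was present in 48.5% of the windows under SMARCC2-only peaks (37.1 to 60.2), in 56.9% under regions of all 4 lists and in 33.1% of all windows. CCAAT was present in 36.8%, 29.5% and 34.6% of the same 3 sets, and the ETS-type sequence CCGGAAG in 13.2%, 14.95% and 10.3%. The forkhead-type sequence TGTTTAC was found in 5 of the 68 windows (7.35%, interval 3.18 to 16.1), against 2.61% under regions of all 4 lists and 3.42% of all windows. The AP-1 type sequence TGANTCA was found in 8 of the 68 windows (11.8%, 6.08 to 21.5), against 5.09% under regions of all 4 lists and 7.68% of all windows. For both of these sequences the interval held the share of all windows. In the 149 windows with a member summit within 500 bp, TGANTCA was found in 6.04%, below the share of all windows. The E-box CACGTG was in 4.41% of the windows under SMARCC2-only peaks, 9.49% under regions of all 4 lists and 7.27% of all windows, and the steroid receptor hexamer AGAACA in 13.2%, 7.75% and 14.8%. The HOX-type sequence CCAATAAA was in none of the 68 windows and in 0.938% of all windows.

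The SMARCC2-only peaks were weaker than most of their own list, which the choice by thresholds favours. Their median −log10 q-value was 4.48, with a range of 2.02 to 21.96, against a median of 7.29 for the 23749 LNCaP SMARCC2 peaks shared with another list. Fold enrichment over local background had a median of 3.77 in the SMARCC2-only peaks and 4.27 in the shared peaks. These peaks were also narrow, with a median width of 464 bp against 684 bp in the shared peaks. Solved from the deposited statistics, the summit of a SMARCC2-only peak held a median of 21 fragments (range 14 to 50) over a background of 4.21. The summit of a shared LNCaP SMARCC2 peak held a median of 29 fragments over a background of 5.26.

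The share of SMARCC2-only peaks changed along the ranked list. They made up 0.234% of the strongest 10% of LNCaP SMARCC2 peaks, 6 of 2564, and 16.0% of the weakest 10%, 410 of 2563. At a −log10 q-value of 10 or more there were 89 SMARCC2-only peaks, 4.71% of the class, against 32.2% of the shared peaks. Only 5 members had a value of 20 or more. Over the whole list 7.37% of LNCaP SMARCC2 peaks were in no other list (7.06 to 7.70), against 17.1% of MR49F SMARCC2 peaks, 18.3% of LNCaP BRG1 peaks and 13.3% of MR49F BRG1 peaks. LNCaP SMARCC2 was also the shortest list, with 25706 deposited peaks against 36174 to 47615 in the others, so a peak of it met longer lists.

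**Figure D1:**
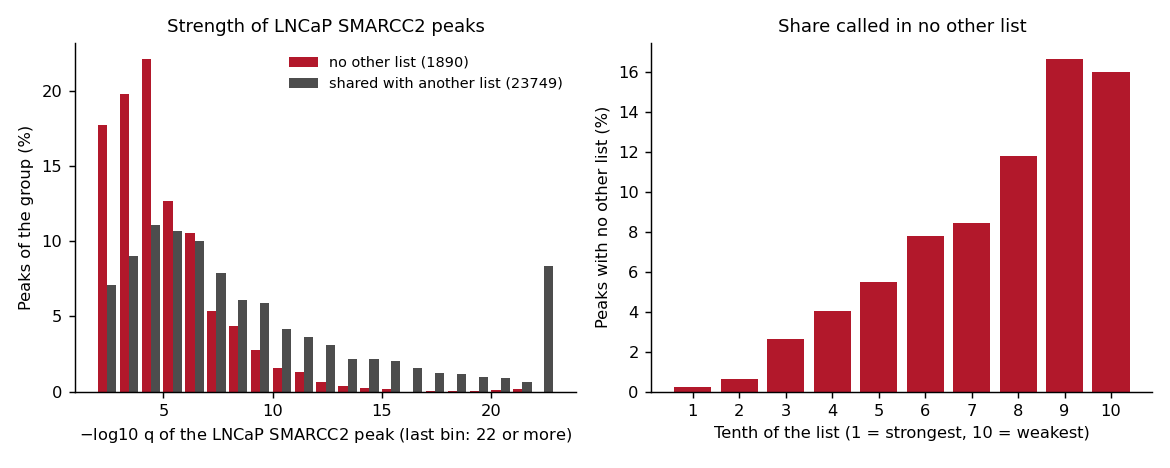
Left, the share of peaks (%) by −log10 q-value for the 1890 LNCaP SMARCC2 peaks in no other list (red) and the 23749 shared ones (grey), the last bin holding all values of 22 or more; right, the share of peaks with no other list (%) in each 10% of the LNCaP SMARCC2 list from strongest to weakest. The red bars end at 21.96, and the share on the right runs between 0.234% in the strongest 10% of peaks and 16.7% in the ninth group.

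Near the joining rule the choice of members was fine-grained. The smallest gap between a SMARCC2-only peak and a peak of another list was 2 bp, and 53 members had another list within 100 bp. On the other side of the rule, the smallest overlap of a shared LNCaP SMARCC2 peak with another list was 2 bp, and 95 such peaks overlapped by at most 100 bp. The median −log10 q-value was 3.67 for those 53 members and 3.42 for those 95 shared peaks. Within 500 bp of another list there were 213 members (11.3%), and within 1000 bp 340 members (18.0%).

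The 12 strongest members were spread over chromosomes 1, 2, 3, 4, 7, 8, 22 and X. The highest, at 124701966 to 124702619 on chromosome 7, had 47 fragments at its summit over a background of 5.0 and a −log10 q-value of 21.96. It lay between genes, and the nearest gene end was that of GPR37, an orphan G protein-coupled receptor. The next, at 48945705 to 48946216 on chromosome 8, had 50 fragments over a background of 5.61, the most of any member, and a −log10 q-value of 21.8. It lay 24.5 kb from SNAI2, which encodes the Slug repressor of epithelial genes. Even these regions ranked only 2002nd and 2011th among the 25639 LNCaP SMARCC2 peaks on these chromosomes.

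Strong SMARCC2-only peaks inside genes were found in COP1, which encodes a ubiquitin ligase, with 46 fragments at the summit, and in CEPT1, a phospholipid synthesis gene, with 43 fragments. Another lay in RAD54L2, which encodes an SNF2-family helicase. That peak, at 51652048 to 51652592 on chromosome 3, had 38 fragments over a background of 3.17, and its fold of 8.62 was the highest of the class. MRTFA, a coactivator of serum response factor, SORBS2, an adaptor of the actin cytoskeleton, TNS1, a focal adhesion protein, and DIAPH2, an actin-nucleating formin, each held a member with 32 to 39 fragments at its summit. A member between genes, nearest to RUNX1T1, a transcriptional corepressor, had 42 fragments. Another, at 36486388 to 36487036 on chromosome 4, had 38 fragments and no protein-coding gene end within 100 kb.

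Few SMARCC2-only regions lay at gene ends. Of the 1890 regions, 141 had a midpoint no more than 1 kb away from either end of a protein-coding gene, or 7.46% (6.36 to 8.73), against 17.2% of all 65315 regions. Elsewhere inside a gene lay 1096 members, 58.0% (55.8 to 60.2), against 47.4% of all regions. The other 653 members (34.6%) lay between genes, against 35.4% of all regions, and 177 of these, 9.37% of the class, were inside a lncRNA gene, against 9.61% of all regions. Among the other classes called in 1 list, gene ends held 6.58% of MR49F SMARCC2-only regions, 9.57% of LNCaP BRG1-only regions and 17.8% of MR49F BRG1-only regions. In regions of all 4 lists the share was 23.8%. The location inside genes was higher in SMARCC2-only regions of LNCaP than in the other 3 single-list classes, which had 47.9% for MR49F SMARCC2, 51.4% for LNCaP BRG1 and 45.1% for MR49F BRG1, while regions called with both antibodies in LNCaP and none in MR49F had 55.9%.

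The low share at gene ends depended on what counted as a shared peak. It was 17.9% when a peak was shared only if another list had a summit within 200 bp, 17.7% when shared peaks had to overlap by 50% of both lengths, and 17.1% when only the 10000 strongest peaks of each list were kept. Under the last of these rules the share over all regions was 17.0%, and 19.1% of all LNCaP SMARCC2 peaks lay at gene ends. The share inside genes came to 48.8% under that rule, against 48.2% over all regions. SMARCC2-only peaks were narrower than shared ones, as given above, and the part of peak width in the result was not tested.

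Start sites, given for 15812 of the 19974 protein-coding genes, showed a like picture. On the chromosomes with start sites in the table, 115 of 1795 members lay within 1 kb of a protein-coding start site, or 6.41% (5.36 to 7.64), against 15.96% of all regions. A promoter window was overlapped by 3.23% of members (2.51 to 4.15), against 14.4% of all regions, 5.97% of LNCaP BRG1-only regions and 3.10% of MR49F SMARCC2-only regions. The median distance to a start site was 49.0 kb in SMARCC2-only regions and 37.0 kb in all regions. A miRNA hairpin of the table was overlapped by 0 of 1795 members, with a Wilson upper limit of 0.214%, and by 0.236% of all regions. The share was 0.0792% in LNCaP BRG1-only, 0.0778% in MR49F SMARCC2-only and 0.159% in MR49F BRG1-only regions, all below that limit. A member is a single peak, while other regions can join several. The part of region width in the overlaps with promoter windows and hairpins was not tested.

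**Figure D2:**
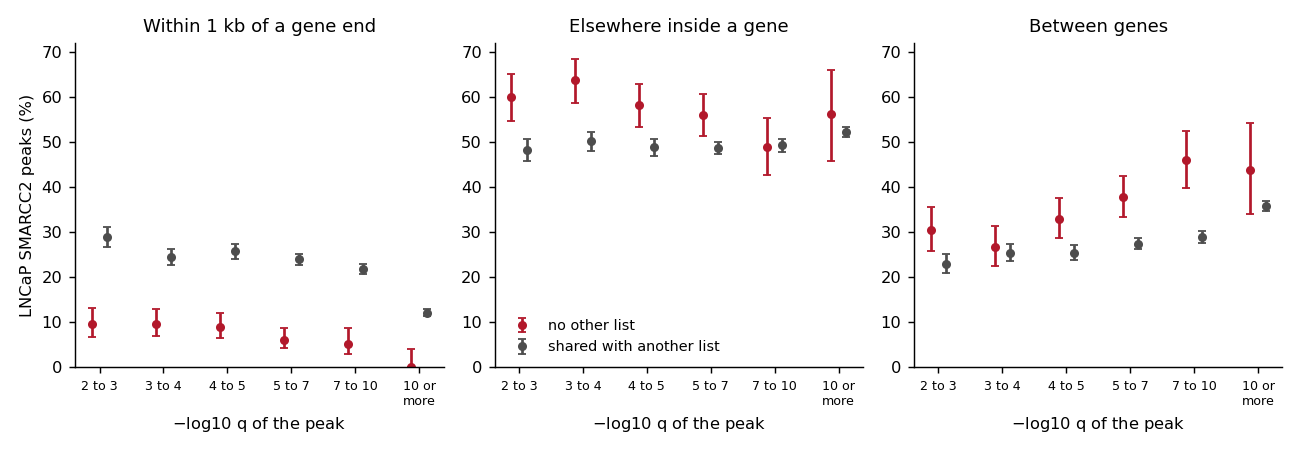
Share of LNCaP SMARCC2 peaks (%) whose summit lay within 1 kb of a gene end, elsewhere inside a gene, or between genes, by −log10 q-value of the peak, for peaks in no other list (red) and shared peaks (grey), with Wilson 95% intervals. In each of the 6 strength bins the red share at gene ends, 0% to 9.63%, lies below the grey one, 12.1% to 28.8%.

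Location was also read by peak strength, with peaks joined by 1 bp. Placed by their summits, 9.55% of SMARCC2-only peaks with a −log10 q-value of 2 to 3 were at gene ends (6.85 to 13.2), against 28.8% of shared peaks in that range. Between 5 and 7 the shares were 6.15% of SMARCC2-only peaks and 24.0% of shared peaks. At 10 or more, 0 of 89 SMARCC2-only peaks were at a gene end, with a Wilson upper limit of 4.14% and 3 counts of that total at 3.37%, against 12.1% of shared peaks. Inside genes the SMARCC2-only peaks led at 3 to 4, with 63.6% against 50.2% of shared peaks, but at 7 to 10 the shares were 48.9% of SMARCC2-only and 49.2% of shared peaks.

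Members inside genes lay mostly in long genes: 69.0% had a host longer than 100 kb, against 63.7% of regions of all 4 lists. Lengths were counted per member and not per gene, and the longest gene was taken where several overlapped. Over the 924 members with a host gene whose strand was known, the host had a median length of 166 kb, and 31.6% of these members were in genes longer than 300 kb. The median host length was 145 kb for regions of all 4 lists, 139 kb for LNCaP BRG1-only regions and 196 kb for MR49F SMARCC2-only regions. A member lay at a median of 41.6% of the way along its host gene, against 40.3% for regions of all 4 lists.

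The gap between a SMARCC2-only region and the peaks of the other lists was measured next. By the choice of members no peak of those lists can overlap a member, and the smallest gap was 2 bp. The median gap to any other list was 9408 bp, and 51.4% of members had a peak of another list within 10000 bp. By list, the median gap was 14.7 kb to MR49F SMARCC2, 17.1 kb to MR49F BRG1 and 15.7 kb to LNCaP BRG1. The LNCaP BRG1 list had a peak within 1 kb of 12.5% of members and within 10 kb of 40.1%. LNCaP BRG1-only regions had a peak within 10 kb for 45.6% with MR49F SMARCC2, 46.3% with MR49F BRG1 and 35.4% with LNCaP SMARCC2. The shared peaks of the members' own list lay at a median of 26.2 kb, and that set, with 23749 peaks, was smaller than the other lists. Members seldom lay beside each other: 70 had another member within 10 kb, the closest pair was 444 bp apart, and the median spacing was 361 kb.

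**Figure D3:**
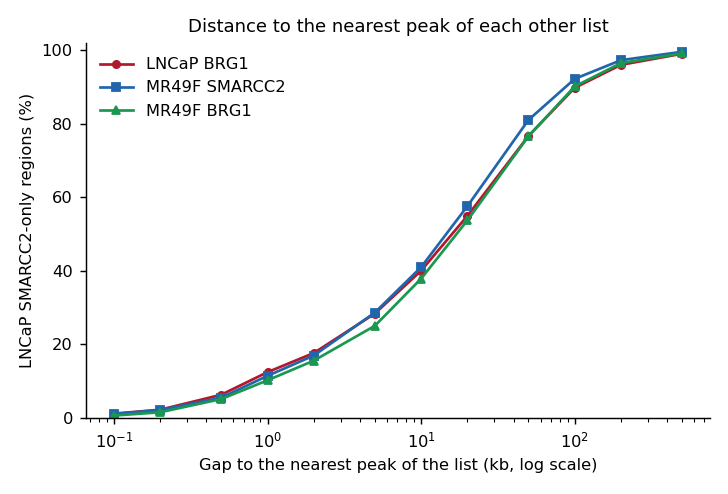
Cumulative share of the 1890 LNCaP SMARCC2-only regions (%) with a peak of LNCaP BRG1 (circles), MR49F SMARCC2 (squares) or MR49F BRG1 (triangles) within a given gap (kb, log scale). At 10 kb the curves stand at 40.1% for LNCaP BRG1, 41.0% for MR49F SMARCC2 and 37.9% for MR49F BRG1.

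The region next to a member was more often one called in LNCaP only than regions in general were. The nearest region was called in MR49F only for 29.3% of members (27.3 to 31.4), against 39.8% of all regions. It was called in LNCaP only for 23.6% of members (21.7 to 25.6), against 16.7% of all regions. LNCaP BRG1-only regions had 30.3% and 21.9% in the same order, and MR49F SMARCC2-only regions 47.7% and 12.04%. The neighbour was a region of all 4 lists for 25.7% of members, against 22.8% of all regions. In 10 Mb windows where the local background of the MR49F and LNCaP libraries differed little, with ratios of 0.9 to 1.1 for both antibodies, the shares were 30.3% for MR49F only and 23.2% for LNCaP only over 1057 members. All regions of those windows stood at 38.5% and 17.2%.

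The members were unevenly spread over chromosomes. They made up 4.33% of regions on chromosome 6 (146 of 3370), 4.00% on chromosome 21 and 3.798% on chromosome 3. The lowest shares were 0.797% on chromosome X (16 of 2008), 1.36% on chromosome 19 and 1.77% on chromosome 12. These shares also move with how many regions of the other lists a chromosome holds. Of the LNCaP SMARCC2 peaks, members were 4.11% on chromosome X, 5.32% on 19 and 5.26% on 12. On chromosomes 6, 21 and 3 they were 9.82%, 8.91% and 8.36%, against 7.37% of the whole list. The local background under peaks, taken relative to the autosome median of each library, also differed between the lines. The MR49F to LNCaP ratio of background in the SMARCC2 lists was 1.35 on chromosome X, 1.26 on chromosome 12, 0.858 on chromosome 6 and 0.804 on chromosome 19. The chromosomes with a ratio above 1.1 were 12, 14, 18 and X, and members made up 1.77%, 2.47%, 2.26% and 0.797% of their regions. Those with a ratio below 0.9 were 6, 13, 16, 19 and 21, with 4.33%, 3.21%, 2.63%, 1.36% and 4.00%, so shares above and below the 2.89% of all regions were both found there. The part of this background, and of the DNA copy number it can follow, in the shares was not tested.

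By 10 Mb window, 4.02% of members (3.22 to 5.004) lay where that ratio was below 0.8, against 2.98% of all regions. Split further, members made up 2.19% of regions (8 of 366) where the ratio was below 0.6 and 4.30% (68 of 1581) between 0.6 and 0.8. Where the ratio was above 1.25 lay 5.03% of members (4.13 to 6.11), against 9.06% of all regions. The windows richest in members, among those with at least 100 regions, were at 160 to 170 Mb on chromosome 5 with 15 of 179 regions (8.38%) and at 70 to 80 Mb on chromosome 6 with 9 of 109 (8.26%). The background ratio in the SMARCC2 lists was 1.002 in that window of chromosome 5 and 0.608 in that of chromosome 6.

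**Figure D4:**
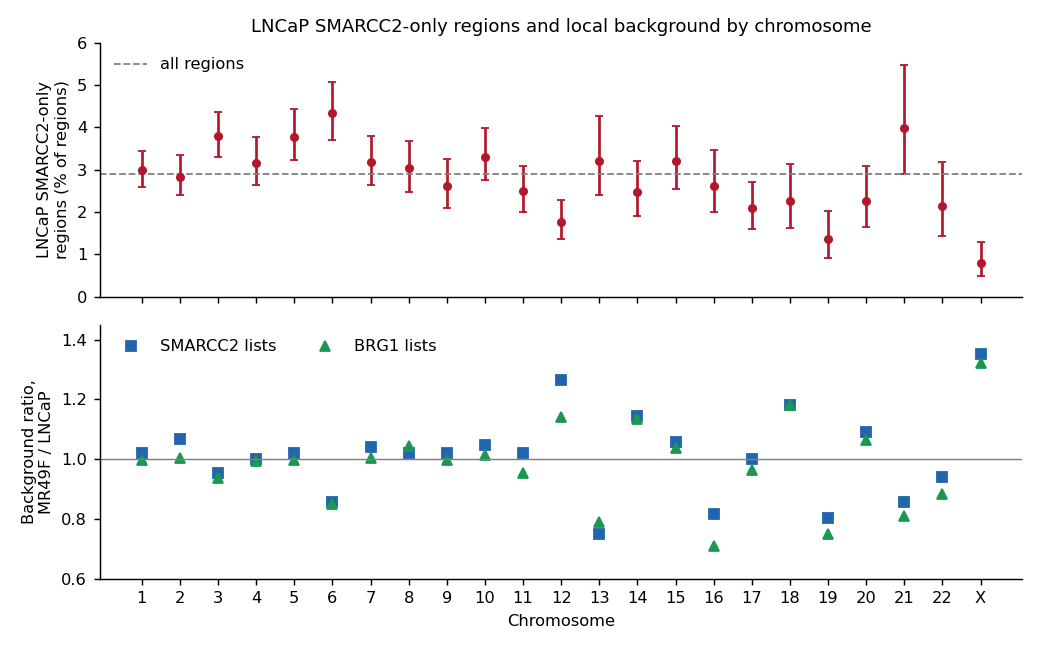
Top, LNCaP SMARCC2-only regions as a share of all regions (%) on each chromosome with Wilson 95% intervals, the dashed line marking 2.89%; bottom, the MR49F to LNCaP ratio of local background on each chromosome in the SMARCC2 (squares) and BRG1 (triangles) lists. Chromosome X has the lowest share, 0.797%, and the highest ratio in the SMARCC2 lists, 1.35, while chromosome 6 has the highest share, 4.33%, and a ratio of 0.858.

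Each member was linked to whichever protein-coding gene had its end closest, up to 100 kb away, which placed 1400 members and left 490 without a gene. At least 1 member was assigned to 1268 of 19974 genes, or 6.35%. Most of these genes, 1148, had 1 member, 109 had 2, 10 had 3 and 1 had 4. Genes with a member usually held other regions too. A region of all 4 lists was assigned to 64.7% of them, against 36.6% of all genes, and their median number of regions was 5, against 2 over genes with any region. The number of regions at a gene thus moved with having a member, and its part in the counts below was not tested.

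KCNN2, a calcium-activated potassium channel gene on chromosome 5, had 4 members among its 14 regions, the most of any gene under this assignment. By gene span extended by 10 kb KCNN2 had 3, and with a gene end within 10 kb it had 0. Their summits held 18, 19, 20 and 20 fragments, with −log10 q-values between 2.41 and 4.63. All were thus weak peaks, and 3 of them lay inside the gene. The gene also had 10 LNCaP SMARCC2 peaks in all, 9 with LNCaP BRG1, 8 with MR49F SMARCC2 and 6 with MR49F BRG1.

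Genes with 3 members held some stronger peaks. STARD13, a GTPase-activating protein, had members of 29, 20 and 29 fragments, with the strongest at a −log10 q-value of 9.12. NSMCE2, a SUMO ligase of the SMC5/6 complex, had members of 29, 20 and 19 fragments inside the gene. RNF11, a RING finger gene, had 3 of its 4 regions in the class, with 24, 18 and 26 fragments, so it was nearly without peaks in the other lists. Members in EPHA3, an ephrin receptor kinase, had 20, 17 and 23 fragments and were 3 of 28 regions; by gene span extended by 10 kb EPHA3 had 8 members, and with a gene end within 10 kb it had 0. ADD3, a cytoskeletal adducin, GALNT7, an enzyme of O-glycosylation, and MRPS27, a mitochondrial ribosome protein, each also had 3 members, with 16 to 27 fragments.

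NRIP1 and NCAM2, both on chromosome 21, also had 3 members each. NRIP1, a corepressor of nuclear receptors, had 3 members inside the gene with 18, 22 and 24 fragments, among 17 regions. NCAM2, a neural cell adhesion gene, had members of 25, 25 and 20 fragments, also among 17 regions. Peaks at NCAM2 numbered 15 with LNCaP SMARCC2, 14 with LNCaP BRG1, 7 with MR49F SMARCC2 and 3 with MR49F BRG1.

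At 93 of the 1268 genes with a member, among 19974 genes in all, the members were the only regions assigned. The like count for the other classes called in 1 list is not given here. IL17F, an inflammatory cytokine gene, had a member of 30 fragments over a background of 3.17, with a −log10 q-value of 13.4, and another list came no nearer than 82912 bp. Background in that window was low in MR49F, at 0.660 of LNCaP in the SMARCC2 lists. SERPINE3, a serpin gene, was the nearest gene to 2 members that lay inside INTS6, a subunit of the Integrator complex. PEX3, a peroxisome assembly gene, had a member of 31 fragments, and PDE1A, a phosphodiesterase, had 1 of 26 fragments 0.183 kb from a gene end. The PDE1A member lay 453 bp from a peak of another list. When lists within 1000 bp also counted as shared, PDE1A had 0 members. FRG2B had a member of 28 fragments, but the gene has near-identical copies, and reads may belong to any of them.

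Gene lists chosen with earlier results of these data known were read against the 6.35% of all genes. Androgen response genes had a member at 8 of 30 genes (26.7%, interval 14.2 to 44.4). These genes had many regions of every kind, and members made up 11 of their 280 regions, or 3.93% (2.21 to 6.90), against 2.89% over all regions. With assignment only within 10 kb of a gene end, 2 of the 30 genes (6.67%) had a member, against 2.41% of all genes under that rule. Beside KCNN2 with its 4, single members were at BMPR1B, a receptor of bone morphogenetic proteins, with 23 fragments, at MAF, a transcription factor, with 20 fragments, and at STEAP4, a metalloreductase, ELL2, an elongation factor, ZBTB10, a zinc finger gene, CENPN, a centromere protein, and B3GAT1, a glucuronyltransferase. BMPR1B, the strongest of them, had a −log10 q-value of 6.19.

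Luminal prostate and partner genes had a member at 4 of 20 genes, and 5 of their 138 regions were members (3.62%, 1.56 to 8.20). NCOA2, a coactivator of steroid receptors, had 2 members inside the gene with 17 and 19 fragments. STEAP2, a metalloreductase of the prostate, had 1 with 27 fragments that ended 235 bp from a peak of another list. KRT8, a luminal keratin, had 1 with a −log10 q-value of 6.06.

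Among the SWI/SNF subunit genes 3 of 27 had a member, and 4 of their 104 regions were members (3.85%, 1.51 to 9.47), against 2.89% over all regions. DPF3 had 2 with 19 fragments each, ARID1B had 1 with 27 fragments over a background of 7.0, and BICRAL had 1 with a −log10 q-value of 3.41. Of the DPF3 members, 1 lay inside another gene, RGS6, 53.4 kb from the end of DPF3. The ARID1B member lay between genes, 89.8 kb from the end of ARID1B and 218 bp from a peak of another list. Other chromatin remodelling genes had members at 4 of 21, among them 1 each at CHD6, CREBBP and KDM6A, with −log10 q-values of 4.38, 3.48 and 2.84 in that order. Of the 167 regions of these remodelling genes, 5 were members (2.99%, 1.29 to 6.82). Cohesin and insulator genes had members at 2 of 16 genes, CTCFL and PDS5B, and at 2 of 61 regions (3.28%, 0.904 to 11.2). For each of these lists the interval held the share over all regions. At a −log10 q-value of 5 or more, none of these lists had a member.

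The interferon and inflammatory list had members at 4 of 20 genes and at 5 of 66 regions (7.58%, 3.28 to 16.5). Its members numbered 3 when lists within 1000 bp also counted as shared, 1 with a gene end within 10 kb and 1 at a −log10 q-value of 5 or more. NFKB1, a subunit of NF-kappa-B, had 2 members of 17 and 19 fragments, CCL2, a chemokine, had 1 of 21 fragments 0.744 kb from its gene end, and IL6R and JAK2 had 1 each. Cell cycle and MYC genes had 4 members in 80 regions (5.0%, 1.96 to 12.2): 2 lay in CDK6, the stronger with 23 fragments and a −log10 q-value of 8.30, and 1 each at CDK1 and MYC. Basal and stem-like genes had 2 members in 60 regions (3.33%, 0.919 to 11.4), at CD44 with 24 fragments and near TP63 with 23. AP-1 factors had 3 in 70 regions (4.29%, 1.47 to 11.9), among them 1 each at BATF3 and MAF. For the cell cycle, basal and AP-1 lists the interval held the 2.89% of all regions.

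For the next 8 lists the interval of the share of regions held the 2.89% of all regions. Receptor kinase and survival genes had 1 member in 190 regions (0.526%, 0.0930 to 2.92), in ERBB4, with 25 fragments. Glucocorticoid receptor and target genes had 0 in 111 regions; 3 counts of that total are 2.70% and the Wilson upper limit is 3.35%. YAP and TEAD pathway genes had 2 in 104 regions, at WWTR1, which encodes the coactivator TAZ, with 27 fragments, and at VGLL4, with 18. Wnt pathway genes had 2 in 130 regions, at LRP5 and APC. The mesenchymal list had its single member near SNAI2, described above, and the neuroendocrine list near NCAM1. Calcium signalling and neuronal adhesion genes had 3 in 145 regions, at CDH12, ROBO2 and PPP3CA, and steroid metabolism genes 1 in 58 regions, near AKR1C1.

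**Figure D5:**
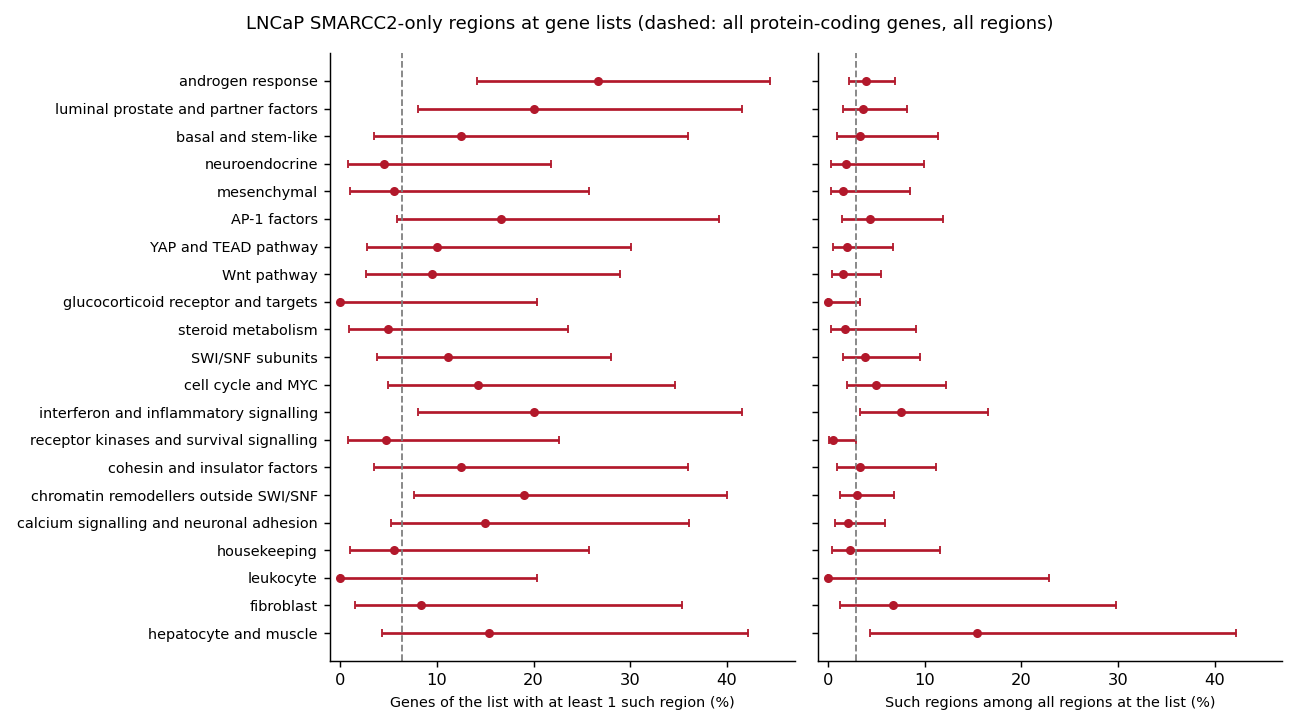
For each of 21 gene lists, the share of genes with at least 1 LNCaP SMARCC2-only region (left, %) and the share of such regions among all regions at the list's genes (right, %), with Wilson 95% intervals; dashed lines mark 6.35% of all genes and 2.89% of all regions. On the right, the intervals of interferon and inflammatory genes (3.28% to 16.5%) and of hepatocyte and muscle genes (4.33% to 42.2%, 2 of 13 regions) lie above the dashed line under this assignment, with no allowance for the number of lists.

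Lists of other tissues and of housekeeping genes were set beside these. Leukocyte genes had no member in their 13 regions, where 3 counts are 23.1% and the Wilson upper limit is 22.8%. Fibroblast genes had 1 in 15 regions (6.67%, 1.19 to 29.8), nearest to ACTA2 but inside FAS. Housekeeping genes had 1 in 45 regions (2.22%, 0.393 to 11.6), near EEF1A1. For the leukocyte, fibroblast and housekeeping lists the interval held the 2.89% of all regions. The 2 members in 13 regions of hepatocyte and muscle genes (15.4%, 4.33 to 42.2) lay near CYP3A4, with 26 fragments, and 0.048 kb from an end of TTR, with 15 fragments. Each was the only region of its gene, and neither gene is typical of prostate cells.

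Marker genes of luminal prostate cells had peaks in every list. In LNCaP SMARCC2, FOLH1 had 15 peaks, TMPRSS2 had 5, HOXB13 had 4, KLK2 and KRT8 had 3 each, and KLK3 and KRT18 had 1 each. Of markers of other lineages, PTPRC, COL3A1, ALB and MYOD1 had 0 peaks in that list, COL1A1 had 1 and CD3E had 2. In MR49F SMARCC2, PTPRC, COL3A1 and MYOD1 had 1 peak each and ALB had 2, and in MR49F BRG1, PTPRC and COL3A1 had 1 each and ALB had 2. Peaks mark occupancy and not expression.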

How the data were processed

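Each of the 4 deposited peak lists came from 1 precipitated library, and data of the 2 inputs were not used here. Tools named in the submitters' processing notes are BWA 0.7.10, SAMtools, MACS2 2.1.0 and the build is hg38, without role or order; for the control, duplicates and read filters the entry is: not given in the sources used here. The authors deposited for each peak a fold (ratio) over local background, and p-value and q-value as −log10; the lowest q-values correspond to a threshold of 0.01. A deposited display score was not used. These are the authors' values and served to describe and rank peaks within a list.

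Peaks sharing at least 1 bp were joined into regions with Python 3.11.15, NumPy 2.4.6, pandas 2.3.3 and SciPy 1.17.1, and plots were drawn with matplotlib 3.10.9. Off chromosomes 1 to 22 and X lay 67 LNCaP SMARCC2 peaks, left out. The whole number of fragments at a summit and the local background were solved from fold and p-value to within 0.005 in −log10 p, and the solution was checked on simulated data. For LNCaP SMARCC2 this held with the precipitated library scaled by 0.920. Total depth is not given in the lists, and fragments were compared within LNCaP SMARCC2 only; background was compared between lines relative to each library's autosome median, in 10 Mb windows with at least 5 peaks per list.

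Genes were the 19974 protein-coding RefSeq genes of GRCh38.p14 on these chromosomes. Of them, 15812 had a start site in the promoter table, which held 22132 protein-coding start sites. Start-site shares and distances leave the other genes out. Chromosome 8 is not in the promoter table, so the 95 members there are outside start-site shares. All 404 gene list entries matched. Named genes were the 12 strongest members, the 10 genes with most members, up to 2 per list, the 6 strongest members over a promoter and 6 genes with members only; further genes of a list are given to complete its count and were chosen after their values were seen. A few genes that the rule names are not reported here. CHSY1, also with 3 members, fell outside the 10. Promoters of the 6 strongest were to be printed, but those of LOC105376267 and MORN5 had 4 and 65 bases under the peak and were left out. Promoter motifs numbered 15, searched on both strands. Members and lists were chosen with earlier results of these data known. Alternatives changed the sharing rule, the peak threshold, the gene window and the background.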

Additional observations from a re-analysis of the deposited data

How the results depend on the processing

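The number of LNCaP SMARCC2-only regions was 5712 when a shared peak needed a summit within 200 bp, 6494 with 50% reciprocal overlap, 763 for members with −log10 q of at least 5, and 1057 in windows with background ratios of 0.9 to 1.1, an alternative added after seeing the data. It stayed within 1.5 times of 1890 under the 4 other rules, at 1364 to 2204. The share at gene ends was 17.9% by summits, 17.7% by reciprocal overlap, 17.1% among the 10000 strongest peaks of each list, 12.1% with a 3 kb gene end (23.5% of all regions), 6.26% when lists within 1000 bp also counted as shared, and 5.24% for members at 5 or more. Inside genes the share was 54.8% by reciprocal overlap, 53.7% with all lists at 5 or more, 53.9% with members at 5 or more, and 48.8% among the 10000 strongest. Between genes it was 26.1% by summits, 27.5% by reciprocal overlap, 37.7% with the 1000 bp rule, 38.3% with all lists at 5 or more and 40.9% with members at 5 or more. With LNCaP BRG1 peaks at 5 or more, 31.2% of members had one within 10 kb. Low MR49F background held 5.62% of members in 5 Mb windows (4.53% of all regions) and 7.14% from BRG1 lists (6.31%). The causes were not tested. Of 279 values for single genes, lists and motifs, 120 moved, by over 1.5 times for a count or beyond the Wilson interval for a share, and 159 did not; counts of 1 to 4 members move easily under such a rule. No paired analysis was possible because each line and antibody had 1 library, so no replicate could be left out either. Depth limits single members: a median summit of 21 fragments lies close to the lowest of 14.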
